A study of Aloe vera with 7 samples.

Results

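Expression of 3 genes of acid storage and carbon acid metabolism was followed in RNA of Aloe vera leaf and root: AT4G26710, for a subunit in the membrane part of the vacuole's proton pump, AT5G58330, the NADP-dependent malate dehydrogenase of plastids, and PPDK, pyruvate phosphate dikinase. They were chosen by name from the probe annotation, and each is represented by 1 single-gene probe set, so they are 3 of the 10991 genes that have such a probe set, and 3 of 18810 probe sets tested. AT4G26710 was picked with its difference between the tissues known, and the other genes were picked for their place in acid metabolism with theirs known. The root minus leaf values of all 3 are therefore given as a description, without a test.

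The series used 7 Affymetrix ATH1 arrays, which carry probes for Arabidopsis thaliana. Leaf RNA and root RNA were each put on 3 arrays, and genomic DNA on 1. All material is Aloe vera with no genotype, treatment, time of day or age in the labels beyond a mature plant from a garden centre kept indoors, and 250 ng of total RNA went into each RNA array. The labels describe 1 plant and do not say whether replicates came from separate plants or leaves, and the p-values rest on a spread between arrays that may be technical. Genes are named as Arabidopsis genes, from the probe annotation, and a value reports how much labelled Aloe RNA bound those probes.

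Crassulacean acid metabolism (CAM) separates carbon uptake from carbon fixation in time. At night carbon dioxide is joined to phosphoenolpyruvate, the product is reduced to malate by malate dehydrogenase, and malic acid is stored in the vacuole, a step powered by proton pumps of the vacuolar membrane. By day malate leaves the vacuole and is decarboxylated, and in many CAM plants pyruvate phosphate dikinase turns the resulting pyruvate back into phosphoenolpyruvate. The V-type proton pump has a soluble V1 sector, which splits ATP, and a membrane VO sector, which carries protons. AT4G26710 encodes the small e subunit of VO, in its e2 isoform in Arabidopsis. AT5G58330 encodes the NADP-dependent malate dehydrogenase, known in Arabidopsis chloroplasts for exporting reducing power as malate. Whether it takes part in the night step in Aloe was not tested.

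The log base of the values is not stated in the sources, and they are taken as log2, on which every fold below rests. The values are differences from the median of each probe set on the RNA arrays. They give no signal level, and levels of different genes cannot be compared. With 6 arrays this centring gives the 2 middle arrays equal and opposite values. Over all 18810 probe sets the median root minus leaf difference was 0.034 log2, the central 95% of differences ran from -0.95 to 0.82 log2, and the median standard error was 0.26 log2. As a check of the tissue labels, the means of 21 of 22 chloroplast-encoded photosystem, cytochrome and rubisco genes were higher in leaf. Among all probe sets the share was 45.5%. The median over these 22 genes was -1.42 log2. In limma 5 of the 22 passed the adjusted threshold of 0.05 toward leaf, while 0 passed toward root. Of all probe sets 0.276% passed toward leaf and 0.0638% toward root. Averaged over these 22 genes, the leaf arrays stood between 0.33 and 1.30 log2 and the root arrays between -0.99 and -0.47 log2. The 8 nuclear antenna and photosystem genes matched had a median of -0.12 log2 and did not separate the tissues, with array averages of -0.075 to 0.18 log2 in leaf and -0.14 to -0.038 log2 in root. Of the root and guard cell markers, 2 and 1 were matched, and their medians were 0.083 and 0.11 log2. In RNA from whole organs, fewer cells of a type and less RNA per cell cannot be told apart.

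AT4G26710 separated the tissues by more than any other probe set in the deposited values. Its probe set stood at 3.25, 3.70 and 3.84 log2 on leaf replicates 1 to 3 and at -4.65, -4.58 and -3.25 log2 on root replicates 1 to 3. All leaf arrays were high and all root arrays low, with no overlap: the lowest leaf array lay 6.49 log2 above the highest root array, and the next widest such gap among all probe sets was 4.63 log2. The leaf mean was 3.60 ± 0.31 log2 and the root mean -4.16 ± 0.79 log2 (SD, n = 3 each). The root minus leaf difference was -7.76 ± 0.39 log2 (SE), 216-fold higher in leaf, and ranked first of 18810 by size. Here and below the SE of a difference is limma's moderated one, which borrows variance from all probe sets. The next probe set toward leaf stood at -5.51 log2. Over all probe sets 6.87% had every leaf array above every root array and 0.276% passed limma's adjusted threshold of 0.05 toward leaf; both are printed as background only, since this difference chose the gene.

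Most of the spread of AT4G26710 lay in root. The root arrays spanned 1.40 log2 and the leaf arrays 0.60 log2, and root replicate 3 stood 0.91 log2 above the root mean while root replicates 1 and 2 stood 0.49 and 0.42 log2 below it (deviations of -0.49 and -0.42). The pooled standard deviation within tissues, 0.60 log2, was at the 87.0 percentile of all probe sets. Taken by replicate number, root minus leaf was -7.90, -8.28 and -7.09 log2 for numbers 1, 2 and 3. After quantile normalization of the arrays, applied to the already centred values, the difference was -7.02 log2. This was a 129-fold difference and thus 1.67 times smaller. Leaving out root replicate 1 gave -7.51 log2 and leaving out root replicate 3 gave -8.21 log2, the extremes over the left-out arrays. As no signal levels are given, whether the root arrays lay above background for this probe set is not known.

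**Figure D1:**
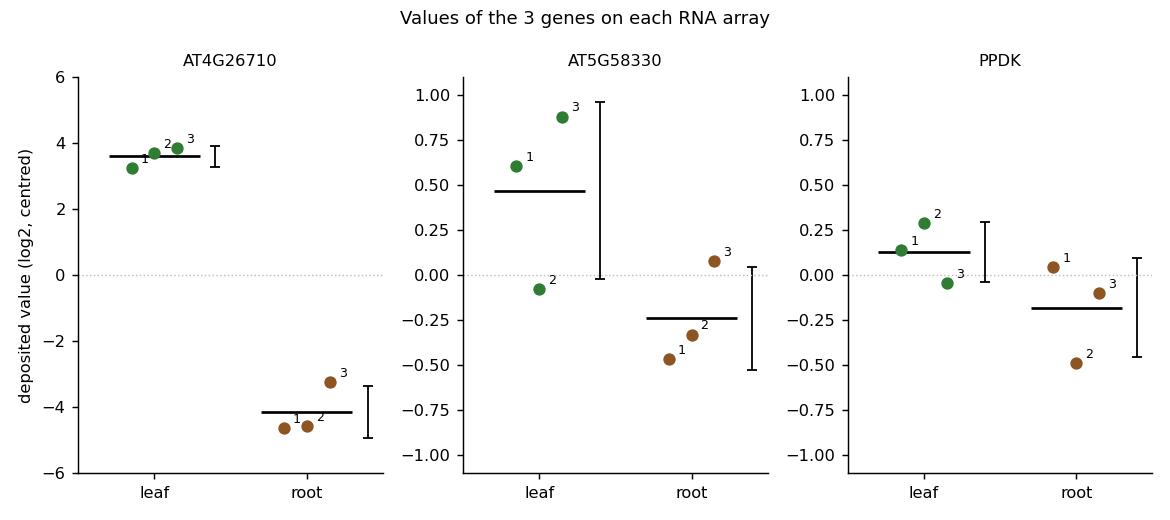
Deposited log2 values, centred on each probe set's median, of AT4G26710, AT5G58330 and PPDK on the 3 leaf (green) and 3 root (brown) arrays, with the replicate number beside each point, a line at the mean and a bar of ± 1 SD. The axis of AT4G26710 is wider than that of the other panels: its tissues lie 6.49 log2 apart at their closest, while the tissues overlap for the other genes.

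AT5G58330, the NADP-dependent malate dehydrogenase, leaned toward leaf with overlap. It stood at 0.60, -0.078 and 0.88 log2 on leaf replicates 1 to 3 and at -0.47, -0.33 and 0.078 log2 on root replicates 1 to 3. Leaf replicates 1 and 3 were above every root array, and leaf replicate 2 was below root replicate 3. The leaf mean was 0.47 ± 0.49 log2 and the root mean -0.24 ± 0.28 log2 (SD, n = 3 each). The root minus leaf difference was -0.71 ± 0.30 log2 (SE), 1.64-fold higher in leaf, and ranked 1632 of 18810 by size, inside the central 95% of all probe sets.

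The low leaf value of AT5G58330 was on leaf replicate 2, which also stood apart in 1 of the ribosomal RNA controls. The control for cytosolic large-subunit ribosomal RNA read -4.72 log2 on leaf replicate 2, and the other 5 RNA arrays read between -0.90 and 1.08 log2. The control for 5S ribosomal RNA read -0.13 log2 on leaf replicate 2, inside the range of the others. The part of this in the value of AT5G58330 was not tested. Without leaf replicate 2 the difference was -0.98 log2 (1.98-fold), and without leaf replicate 3 it was -0.50 log2 (1.42-fold). By replicate number, root minus leaf was -1.07, -0.25 and -0.80 log2. Leaf was thus higher at each number, as it was in 14.8% of all probe sets.

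PPDK showed the smallest difference of the 3 genes. Its probe set stood at 0.14, 0.29 and -0.045 log2 on leaf replicates 1 to 3 and at 0.045, -0.49 and -0.10 log2 on root replicates 1 to 3. Leaf replicates 1 and 2 were above every root array, leaf replicate 3 was below root replicate 1, and root replicate 2 was the lowest array. The leaf mean was 0.13 ± 0.17 log2 and the root mean -0.18 ± 0.28 log2 (SD, n = 3 each). The root minus leaf difference was -0.31 ± 0.22 log2 (SE), 1.24-fold higher in leaf, and ranked 6965 of 18810 by size. The pooled standard deviation of 0.23 log2 was at the 27.1 percentile, so the PPDK values also varied little within tissues. As no signal levels are given, whether this probe set lay above background on any array is not known.

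The PPDK difference was smallest with root replicate 2 left out. Without it root minus leaf was -0.16 log2 (1.11-fold), and without root replicate 1 it was -0.42 log2 (1.34-fold). By replicate number, root minus leaf was -0.093, -0.78 and -0.057 log2, with the largest difference at number 2.

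**Figure D2:**
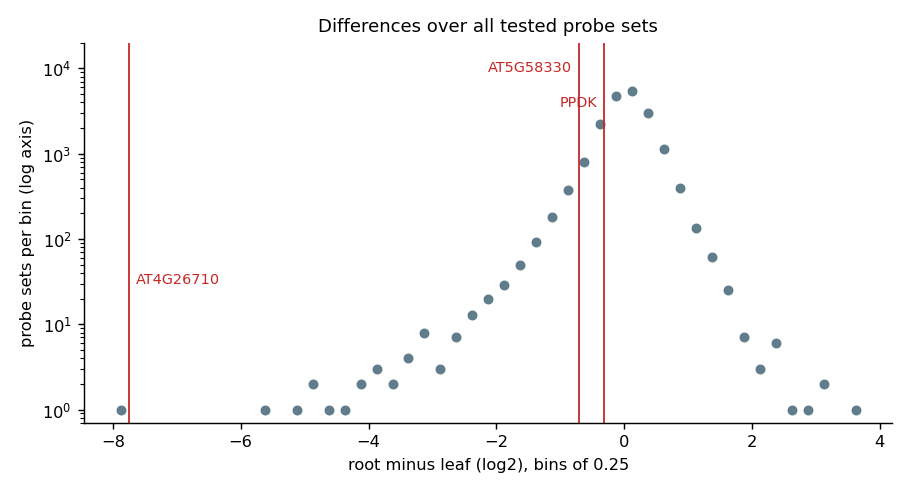
Number of probe sets (log axis) in each 0.25-wide bin of root minus leaf difference in log2, for all 18810 tested probe sets; empty bins are left out. Red lines mark AT4G26710 at -7.76, the lowest value of all, and AT5G58330 at -0.71 and PPDK at -0.31, both within the bulk of the distribution.

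Other genes linked to acid storage and regeneration were read from 9 lists holding 93 Arabidopsis genes, the 3 above included. Of the other 90 genes, 12 matched a single-gene probe set, in 4 lists. None of these 12 passed the adjusted threshold of 0.05 in limma over all probe sets, in either direction (0 toward leaf, 0 toward root), where 0.276% of all probe sets passed toward leaf and 0.0638% toward root. At an unadjusted p under 0.05 the count was 1 of 12, against 9.56% of all probe sets. The means were higher in leaf for 6 and in root for 6, and the median of their differences was 0.031 log2 beside 0.034 log2 over all probe sets. Without signal levels, whether the probe sets of these 12 genes lay above background is not known, so a small difference need not mean similar expression. No gene of the lists for the vacuolar pyrophosphatase, phosphoenolpyruvate carboxylation or the transport of acids and phosphoenolpyruvate was matched, and none other than AT5G58330 and PPDK of the malate dehydrogenases and of the decarboxylating enzymes. Those genes may lie on probe sets without a gene listed here, and they were not analysed.

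Among the subunits of the proton pump, 7 besides AT4G26710 were matched. AT5G55290 encodes the other e subunit of the VO sector, the e1 isoform in Arabidopsis. It stood at -0.027, -0.64 and 0.18 log2 on leaf replicates 1 to 3 and at 0.083, 0.027 and -0.23 log2 on root replicates 1 to 3, so the tissues overlapped. Its root minus leaf difference was 0.12 ± 0.26 log2 (95% interval -0.48 to 0.72, limma adjusted p = 0.939). The probe set of the e2 subunit, picked with its difference known, stood at -7.76 log2. Whether these probes tell e subunits of Aloe apart was not tested.

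VHA-A2, one of the isoforms of the large a subunit of VO and found at the vacuolar membrane in Arabidopsis, leaned toward root. It stood at -0.21, -0.81 and -0.24 log2 on leaf replicates 1 to 3 and at 0.53, 0.41 and 0.21 log2 on root replicates 1 to 3. Every root array was above every leaf array, as in 8.27% of all probe sets. The root minus leaf difference was 0.80 ± 0.24 log2 (95% interval 0.25 to 1.35), 1.74-fold higher in root. It is the gene with an unadjusted p under 0.05 and did not pass after adjustment (limma adjusted p = 0.312). It kept the root side in all 12 alternative settings, with differences of 0.61 to 0.91 log2 and adjusted p-values in limma of 0.145 to 0.571. Some of these settings by construction change the p-value and leave the difference as it was.

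The other a subunits had smaller differences and overlapping tissues. VHA-A1, an isoform of the trans-Golgi network in Arabidopsis, differed by -0.16 ± 0.27 log2 (95% interval -0.79 to 0.48, limma adjusted p = 0.921). It stood at 0.65, -0.30 and 0.029 log2 on leaf replicates 1 to 3 and between -0.16 and 0.10 log2 on the root arrays, and leaf replicate 1 was the one leaf array above every root array. VHA-A3, the second a isoform of the vacuolar membrane, differed by -0.039 ± 0.21 log2 (95% interval -0.52 to 0.44, limma adjusted p = 0.980), and its 6 arrays spanned 0.45 log2. Whether the 3 isoforms differ from each other in the tissue contrast was not tested.

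The remaining pump subunits overlapped between tissues. AT4G32530, a proteolipid of the proton-carrying ring of VO, differed by 0.28 ± 0.21 log2 (95% interval -0.21 to 0.77). Its root arrays lay within 0.12 log2 of each other, and leaf replicate 2 stood among them at 0.054 log2. Of the V1 sector, the D subunit of the central stalk, AT3G58730, differed by 0.30 ± 0.37 log2 (95% interval -0.56 to 1.15), with root replicate 1 at 0.72 log2 and root replicate 3 at -0.67 log2, the highest and the lowest of its arrays. AT3G42050, the regulatory H subunit of V1, differed by -0.42 ± 0.31 log2 (95% interval -1.14 to 0.30), with leaf replicate 3 highest at 0.75 log2 and root replicate 2 lowest at -0.49 log2. The limma adjusted p-values of these 3 were 0.768, 0.875 and 0.761. Over the 7 subunits the median was 0.12 log2, with 3 means higher in leaf and 4 in root.

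**Figure D3:**
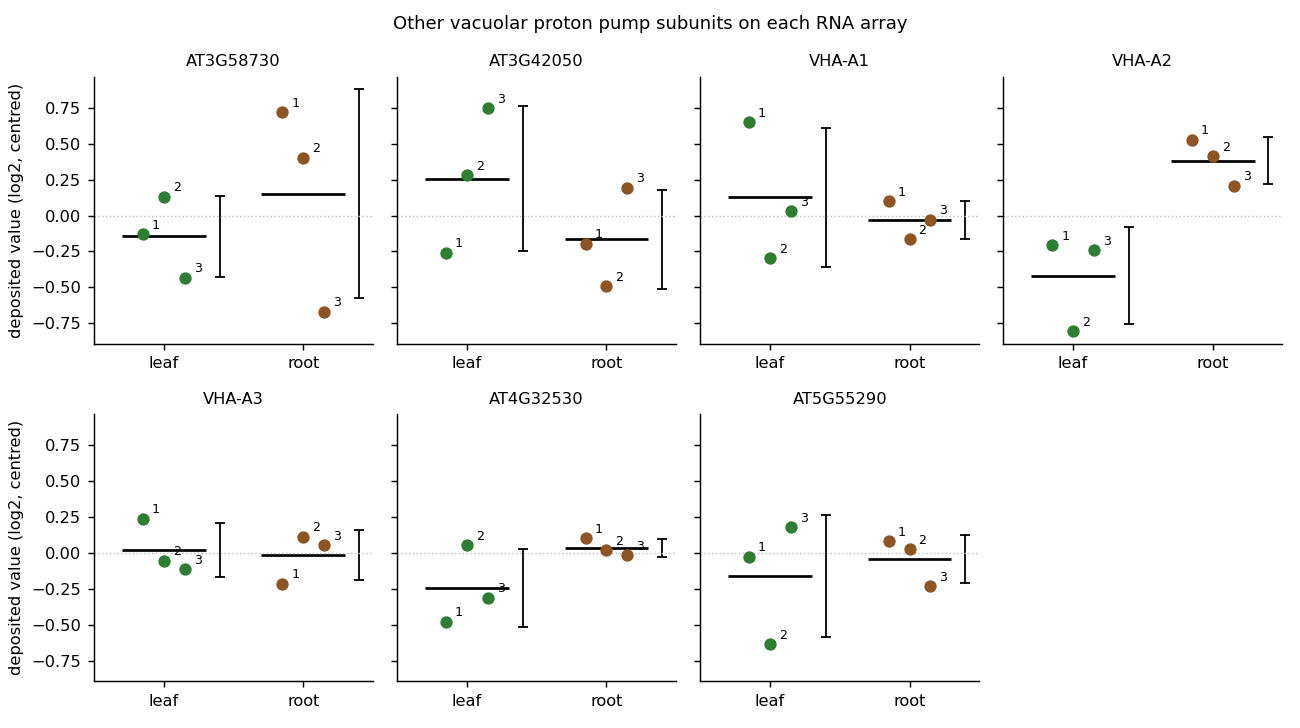
Deposited log2 values of the 7 other proton pump subunits on the 3 leaf (green) and 3 root (brown) arrays, drawn on 1 common axis with replicate numbers, means and bars of ± 1 SD. VHA-A2 is the panel in which all root arrays lie above all leaf arrays; AT5G55290, the other e subunit, overlaps between the tissues.

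Starch is the store from which many CAM plants make phosphoenolpyruvate at night. PWD, the phosphoglucan water dikinase that prepares starch for breakdown, stood at 0.15, 0.61 and 0.0087 log2 on leaf replicates 1 to 3 and at -0.30, -0.0087 and -0.048 log2 on root replicates 1 to 3. All leaf arrays were above all root arrays, as in 6.87% of all probe sets, and leaf replicate 3 and root replicate 2 lay only 0.017 log2 apart. The difference was -0.38 ± 0.23 log2 (95% interval -0.91 to 0.16, limma adjusted p = 0.698). ENOC, a cytosolic member of the enolase family of glycolysis, differed by 0.28 ± 0.21 log2 (95% interval -0.20 to 0.77, limma adjusted p = 0.761).

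Sugar carriers of the vacuolar membrane gave small differences. TMT2, a monosaccharide carrier that loads sugar into the vacuole, differed by -0.24 ± 0.22 log2, and its relative TMT3 by 0.10 ± 0.24 log2. AT5G17010, of the vacuolar glucose transporter group, differed by -0.22 ± 0.21 log2. The 95% intervals were -0.74 to 0.27, -0.45 to 0.65 and -0.70 to 0.26 log2, and the limma adjusted p-values 0.810, 0.946 and 0.816. Tissues overlapped in all 3.

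**Figure D4:**
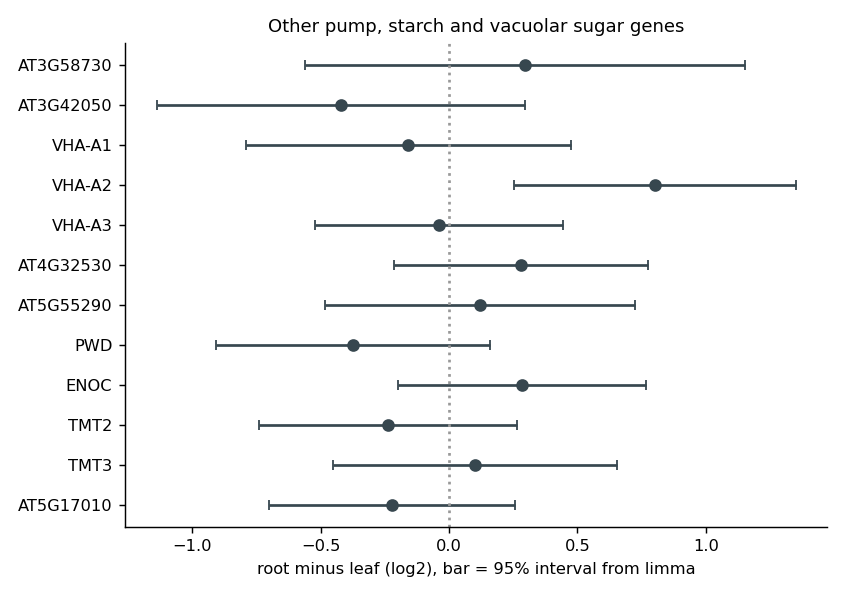
Root minus leaf difference in log2 (points) with 95% intervals from limma (bars) for the 12 other matched genes of the proton pump, starch and vacuolar sugar lists. The interval of VHA-A2, 0.25 to 1.35, lies above 0 before adjustment, and the other 11 intervals include 0.

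The probe sets most like each of the 3 genes were sought among the other 11099 single-gene probe sets by the root mean square difference over the 6 arrays. For AT4G26710 they were ndhA, AT3G09570 and AT2G14800, at 1.37, 1.54 and 1.69 log2, with Pearson r of 0.97, 0.98 and 0.99 over 6 arrays. The correlations describe a shared split of leaf from root, since in these probe sets the arrays form 2 clusters. In distance no probe set came within the 0.60 log2 that replicates of AT4G26710 vary by. The chloroplast gene ndhA, which encodes part of the NADH dehydrogenase-like complex, stood at 1.68 to 2.35 log2 in leaf and at -3.96, -4.96 and -1.68 log2 on root replicates 1 to 3, so that root replicate 3 was its highest root array, as for AT4G26710. In AT3G09570 and AT2G14800 root replicate 3 was instead the lowest root array, at -2.88 and -2.39 log2. All 3 were chosen by likeness over these same arrays, so a shared order of arrays is no separate result.

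AT5G58330 and PPDK had many close neighbours. The nearest to AT5G58330 were AT4G29890, AT3G18600 and AT4G01920, at 0.146, 0.156 and 0.159 log2, and 856 probe sets lay within the gene's own replicate spread of 0.40 log2. All 3 shared the low leaf replicate 2, at 0.013, -0.17 and -0.067 log2, which follows from choosing them by likeness over these same arrays. The nearest to PPDK were AT5G19120, AT1G18470 and UGT73C7, at 0.0576, 0.0601 and 0.0627 log2, and 727 lay within its spread of 0.23 log2. All 3 shared the low root replicate 2, at -0.59, -0.52 and -0.46 log2, which again follows from how they were chosen.

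**Figure D5:**
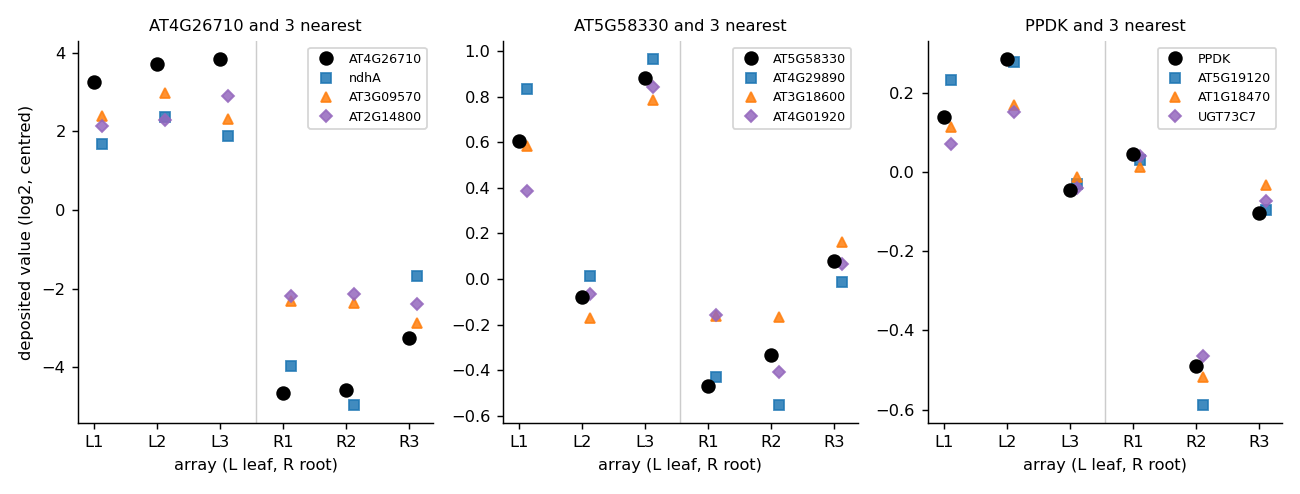
Deposited log2 values on leaf (L1 to L3) and root (R1 to R3) arrays of each of the 3 genes (black) and the 3 single-gene probe sets nearest to it by root mean square difference (coloured markers), with a separate axis range for each panel. The neighbours of AT4G26710 lie closer to 0 than it does on the leaf arrays, whereas those of PPDK nearly coincide with it.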

How the data were processed

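RNA of leaf and root was measured on 3 arrays each. Per the submitters' processing notes the authors used RMA, which corrects background, normalizes by quantiles and summarises probes; version, log base, centring and any filter are not given in the sources used here. The deposited values, taken as log2, had a median within 1e-06 of 0 in all 18874 probe sets, so each had been centred. The column of the DNA array held 0 values and was not used. Depth has no meaning for arrays; their number limits the precision.

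Control probe sets (64) were left out. The difference of root from leaf was estimated in limma 3.58.1 (R 4.3.3) with moderated variances and without covariates over 18810 probe sets, with Benjamini-Hochberg adjustment; residual and prior degrees of freedom were 4 and 3.8. The fit was tested on simulated data with noise independent between arrays, and a link between same-numbered arrays was not simulated. Python 3.11.15 and pandas 2.3.3 made the summaries. Of the probe sets, 11100 carry 1 gene in the platform annotation, 350 several and 7360 none listed. Single-gene probe sets were matched by locus or symbol to 93 listed genes; 1 match, PGM, was dropped because its gene ID belongs to another gene, and 3 probe sets listing several genes were not used. The members and lists were chosen with earlier results of these data known. Named were the members, every matched listed gene and the 3 nearest single-gene probe sets per member.

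The labels do not say what a replicate number marks. Deviations from tissue means correlated by 0.117 to 0.366 between same-numbered arrays and by -0.294 to 0.064 otherwise, over probe sets. The deviations cancel within each tissue, so these ranges are not independent. As all 3 same-number values exceeded 0.1, the numbers may pair the arrays, though the lowest, 0.117, lay near the highest other value, 0.064. The values reported come from the fit without the pairing, and the fit with the number as a block is an alternative. No 2 arrays were duplicates (smallest median absolute difference 0.301 log2). Over all probe sets the arrays did not form clean tissue clusters. Leaf replicate 2 differed by 0.319 log2 from root replicate 2, and by 0.327 and 0.329 log2 from leaf replicates 1 and 3. It differed by 0.334 and 0.373 log2 from root replicates 1 and 3. Alternatives were quantile normalization, array centring, trend and robust moderation, array weights, the replicate block, no shared-sequence suffix and leaving out each array.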

Additional observations from a re-analysis of the deposited data

How the results depend on the processing

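The counts over all probe sets were 52 higher in leaf and 12 higher in root, and stayed within 1.5 times with the replicate block, with array weights, after centring or quantile normalization of the arrays, and without probe sets of a shared-sequence suffix. With trend and robust moderation they were 115 and 40; the trend rested on centred values, and the cause was not tested. Fits that omit 1 array, and so have fewer samples, gave 7 to 28 higher in leaf and 0 to 5 higher in root. The difference of AT4G26710 was -7.02 log2 after quantile normalization, where it moved by more than its replicate spread; the cause was not tested. With 1 array left out the differences ran from -8.21 to -7.51 log2 for AT4G26710. They ran from -0.98 to -0.50 log2 for AT5G58330 and from -0.42 to -0.16 log2 for PPDK. All 3 genes kept their sign in all 12 alternatives. Trend and robust moderation, the replicate block and the suffix filter could not change these differences, so the kept sign there carries no information. Of the 12 other listed genes 0 were called in any of the 12 alternatives in limma, with 1 or 2 at an unadjusted p under 0.05. The replicate block left the differences of the 3 genes as they were (-7.76, -0.71 and -0.31 log2), as it must when each number has both tissues. It changed the call of none of the 12 others. The signs of VHA-A1, VHA-A3, AT5G55290 and TMT3, none of them called, turned in 1 or 2 of the 12 alternatives. Without signal levels, what lay near background cannot be set apart.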
